A study of Mus musculus with 11 samples.

Results

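ZIC2 and POU3F1 are both transcription factors of the epiblast, and they read DNA in different ways. ZIC2 is a zinc finger protein of the GLI/ZIC family that binds GC-rich sequence, and POU3F1 is a POU domain protein that binds the AT-rich octamer, as its relative POU5F1 does. In the postimplantation epiblast both are associated with the passage from pluripotency towards the neural plate. The regions described here are the places where a peak of one factor touched a peak of the other in mouse epiblast stem cells (EpiSCs). They were chosen by the positions of the peaks, as the EpiSC ZIC2 peaks on chromosomes 1 to 19 and X that shared at least 1 bp with an EpiSC POU3F1 peak, and are called ZIC2-POU3F1 sites below. There were 1407 such sites among 121805 ZIC2 peaks (1.16%, 95% Wilson interval 1.10 to 1.22). On the other side, 1434 of 112687 POU3F1 peaks (1.27%) were involved, in 1453 pairs of peaks. The overlap of the lists therefore defined the sites and is given only as a description.

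The study mapped 5 factors by ChIP-seq, ZIC2, OTX2, SOX2, POU5F1 and POU3F1, in 1 EpiSC line of strain 129/Sv grown without feeders in medium containing activin at 20 ng/ml and Fgf2 at 10 ng/ml. Each factor was made from a transiently transfected pCAGGS vector with a BLRP tag, which the co-expressed ligase BirA biotinylates, and its chromatin was pulled down with streptavidin; the tagged protein was thus added to the endogenous one. A second set of the same 5 libraries came from activin-free cells (EpiSCA in the labels), from which activin had been withdrawn for 18 h. There was 1 library per factor and culture, so no value has a replicate error. The brackets after a share hold its 95% Wilson interval and those after a difference of shares its 95% Newcombe interval. Both cover counting error only, and neighbouring peaks are not independent.

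Every peak carried the MACS score, which is the peak's p-value as -10 log10, so that a higher score means a more certain peak and not a stronger binding as such. The lowest score in the lists was 50. The lists hold no reads, and library depth is unknown.

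Most of the sites were contacts between the edges of neighbouring peaks rather than peaks laid over each other. The shared stretch had a median of 230 bp (quartiles 102 and 405, range 1 to 2073). It made up a median of 28.1% of the ZIC2 peak and 19.8% of the POU3F1 peak. The midpoints were a median of 716 bp apart (quartiles 491 and 1005). In 959 of the 1453 pairs (66.0%, 63.5 to 68.4) neither midpoint lay inside the other peak, and in 180 pairs (12.4%, 10.8 to 14.2) each peak held the midpoint of the other. In 143 pairs (9.84%) at least 50% of both peaks was shared. The ZIC2 peak lay wholly inside the POU3F1 peak in 92 pairs, and the POU3F1 peak wholly inside the ZIC2 peak in 48. Midpoints lay within 100 bp of each other in 48 pairs. Nearly all ZIC2 peaks, 1362 of 1407, touched a single POU3F1 peak, 44 touched 2, and 1 touched 3.

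The limit of 1 shared bp did not mark a step in the distances between the lists. In bins of 100 bp, 338 ZIC2 peaks shared 1 to 100 bp with a POU3F1 peak, and 300 lay at a gap of 0 to 99 bp. The number then fell slowly, to 210 at gaps from 900 to under 1000 bp. Just inside the limit, 178 ZIC2 peaks with 1 to 50 shared bp had a median score of 136 and a median width of 771.5 bp. Just outside it, 147 peaks with a gap of 0 to 49 bp had a median score of 146 and a median width of 744 bp.

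**Figure D1:**
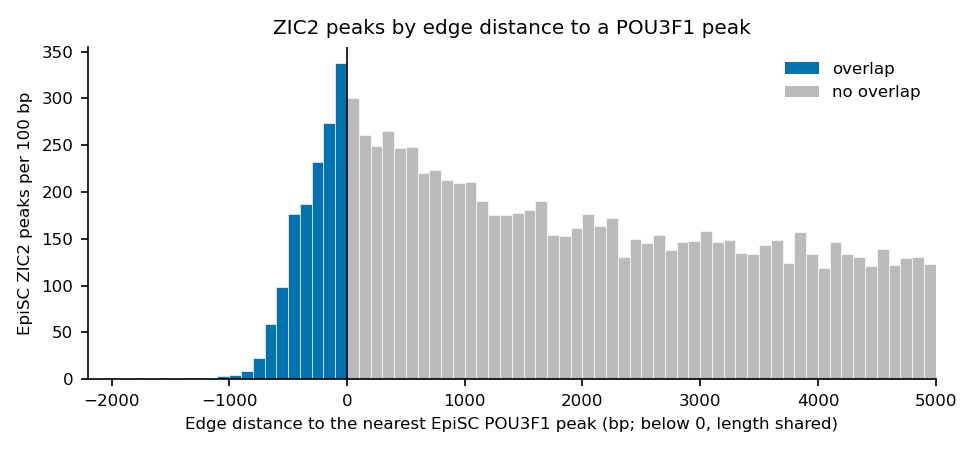
Number of EpiSC ZIC2 peaks per 100 bp (vertical axis) by the distance from their edge to the nearest EpiSC POU3F1 peak (horizontal axis, bp; values below 0 are the length shared). Blue bars are the 1407 ZIC2-POU3F1 sites, which all share at least 1 bp, and grey bars are ZIC2 peaks without overlap. The count reaches 338 in the last bin before contact and is 300 in the next, with no step between them.

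The sequence changed across each site. With every site turned so that its ZIC2 side lay to the left, mean G+C content in windows of 200 bp was 51% at 300 bp to the ZIC2 side of the centre of the shared stretch and 34.4% at 300 bp to the POU3F1 side. At 3900 bp on the ZIC2 side it was 40.6%, and at 3900 bp on the POU3F1 side 40.2% (1405 sites with complete sequence). In 200 bp around the ZIC2 midpoints, G+C averaged 54.4%, close to the 55.8% at ZIC2 peaks without POU3F1. Around the POU3F1 midpoints of the same sites it averaged 34.5%, against 32.9% at POU3F1 peaks without ZIC2 and 41.8% in windows taken every 10 kb of the genome. At the sites, then, the mean base composition around each factor's midpoints was near that of the rest of its own list. The midpoints were a median of 716 bp apart.

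Over all sites, binding sequences were divided in the same way. CAGCAGG, a sequence that ZIC proteins bind, was searched on both strands in 200 bp around each midpoint. It was present at 23.9% (21.7 to 26.2) of the ZIC2 midpoints of the sites but at 2.91% (2.16 to 3.93) of their POU3F1 midpoints. At ZIC2 peaks without POU3F1 it was present at 18.9%, a difference of 4.93 points (2.76 to 7.24), and the genome windows held it in 4.0%. In windows of 400 bp this difference was 1.99 points (-0.43 to 4.50), an interval that included 0. The POU octamer, searched as ATGCAAAT or ATGCATAT on both strands, was present at 12.7% (11.1 to 14.6) of the sites' POU3F1 midpoints and at 4.26% (3.33 to 5.45) of their ZIC2 midpoints. It was present at 8.76% of the POU3F1 peaks without ZIC2, at 1.01% of the ZIC2 peaks without POU3F1, and in 3.02% of genome windows. The octamer was thus more frequent at sites than elsewhere in both lists, by 3.93 points (2.30 to 5.76) for POU3F1 peaks and by 3.25 points (2.31 to 4.44) for ZIC2 peaks. At the centre of the shared stretch itself, 12.7% of windows held CAGCAGG and 6.11% held the octamer. The division was weaker at the 180 sites where each midpoint lay inside the other peak. There CAGCAGG was at 28.9% of ZIC2 and 10.6% (6.86 to 15.9) of POU3F1 midpoints. The octamer was at 7.78% (4.69 to 12.6) and 13.9% (9.59 to 19.7), respectively. At the 915 sites with neither midpoint inside, CAGCAGG was at 21.0% and 1.97%, and the octamer at 2.62% and 13.1%. Runs of at least 20 bp of alternating purines and pyrimidines were found at 7.25% of the sites' POU3F1 midpoints, against 4.09% at POU3F1 peaks without ZIC2 and 3.78% of genome windows. At their ZIC2 midpoints the share was 0.426%, against 0.685% at ZIC2 peaks without POU3F1, a difference whose interval included 0. A match to such letters is not a measured binding position.

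**Figure D2:**
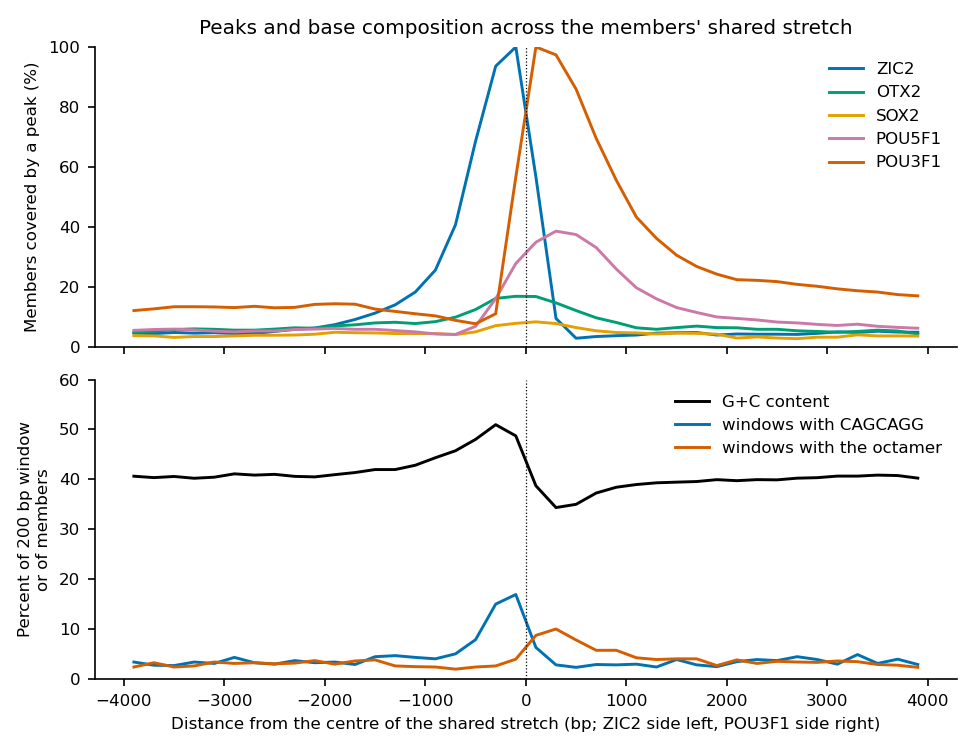
Upper panel, percentage of the 1407 sites covered by an EpiSC peak of each factor at a given distance (bp) from the centre of the shared stretch, with the ZIC2 side on the left and the POU3F1 side on the right. Lower panel, mean G+C content and percentage of 1405 sites whose 200 bp window holds CAGCAGG or the octamer. The coverage of ZIC2 and POU3F1 is fixed by the choice and orientation of the sites, whereas POU5F1 coverage is highest at 38.5%, 300 bp to the POU3F1 side, where G+C content is lowest at 34.4%.

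The following shared stretches show what these contacts look like as sequence. They belong to the rule that took the sites with the highest lower score of the pair outside the factors' own exons (Cd36, Zfp91), and the recurrent sites with the nearest midpoints (Slit3, Pou4f1). Each is named by the protein-coding gene with the nearest TSS. All are from mm9, plus strand, at most 300 bp around the middle of the stretch. Capitals mark CAGCAGG (or its complement CCTGCTG), the octamer and GGATTA, which OTX proteins bind and which 7.96% of genome windows hold. The stretches are chr5:17292163-17292462 (Cd36), chr19:12868845-12869144 (Zfp91), chr11:35108563-35108862 (Slit3) and chr14:104872668-104872967 (Pou4f1). None of them overlaps an annotated exon.
Cd36: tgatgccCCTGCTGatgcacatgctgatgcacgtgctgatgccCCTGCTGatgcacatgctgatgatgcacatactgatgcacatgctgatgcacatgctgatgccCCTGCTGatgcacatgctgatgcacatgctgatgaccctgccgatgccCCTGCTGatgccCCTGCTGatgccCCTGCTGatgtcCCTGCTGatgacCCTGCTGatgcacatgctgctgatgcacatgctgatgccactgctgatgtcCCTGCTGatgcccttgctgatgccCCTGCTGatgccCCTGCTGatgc
Zfp91: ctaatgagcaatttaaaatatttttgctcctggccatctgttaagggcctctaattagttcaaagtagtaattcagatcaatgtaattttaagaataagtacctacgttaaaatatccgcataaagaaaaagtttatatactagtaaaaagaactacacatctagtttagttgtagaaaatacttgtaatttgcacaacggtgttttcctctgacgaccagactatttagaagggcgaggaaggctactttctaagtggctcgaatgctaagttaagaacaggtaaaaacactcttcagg
Slit3: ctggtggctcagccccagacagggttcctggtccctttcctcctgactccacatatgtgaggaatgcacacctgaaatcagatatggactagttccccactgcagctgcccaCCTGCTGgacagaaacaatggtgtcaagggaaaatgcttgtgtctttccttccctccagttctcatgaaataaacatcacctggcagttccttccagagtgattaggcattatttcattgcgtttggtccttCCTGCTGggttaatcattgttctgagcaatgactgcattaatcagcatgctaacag
Pou4f1: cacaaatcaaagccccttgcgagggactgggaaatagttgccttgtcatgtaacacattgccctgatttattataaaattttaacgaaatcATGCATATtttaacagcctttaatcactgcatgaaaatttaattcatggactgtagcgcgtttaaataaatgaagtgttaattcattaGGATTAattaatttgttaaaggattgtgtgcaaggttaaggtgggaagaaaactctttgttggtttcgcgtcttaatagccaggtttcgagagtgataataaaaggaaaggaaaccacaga
The Cd36 stretch is a tandem array with 11 copies of CAGCAGG and 57.7% G+C. The Zfp91 stretch has 34.0% G+C and none of the motifs, and lies in AT-rich intron sequence beside a promoter. The Slit3 stretch holds 2 copies of CAGCAGG. The Pou4f1 stretch holds 1 octamer and 1 GGATTA within 35.0% G+C. By the same rule, the stretches nearest to Pkn2 and Lpar4 held none of these motifs.

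The site nearest to Fgf5, which encodes a growth factor used as a marker of the primed epiblast, shows the change along a single site. It lay between genes, 29.8 kb from the TSS of Fgf5, and was selected because Fgf5 was among the genes to be named. Its ZIC2 peak had a score of 1167 and its POU3F1 peak one of 136. In windows of 200 bp, chosen after their values were seen, G+C content was 29.0% around its POU3F1 midpoint and 56.5% around its ZIC2 midpoint. At the site nearest to Sox3, on chromosome X, the POU3F1 midpoint had 32.0% and the ZIC2 midpoint 63.0%.

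POU5F1, the pluripotency factor whose POU domain is related to that of POU3F1, was the further factor found most often. Of the 1407 sites, 36.3% (33.8 to 38.9) had a POU5F1 peak over their ZIC2 peak, whereas 2.45% of the other ZIC2 peaks had one and 2.85% of all of them. The difference was 33.9 points (31.4 to 36.4). Since POU5F1 peaks often lie on POU3F1 peaks, a ZIC2 peak that touches a POU3F1 peak can meet one through its outer part. When the POU5F1 peak had to overlap the central 500 bp of the ZIC2 peak, the difference was 26.8 points (24.5 to 29.2). Seen from the POU3F1 list, 45.7% (43.2 to 48.3) of the POU3F1 peaks with ZIC2 also had POU5F1, against 27.7% without ZIC2 and 28% of all POU3F1 peaks, a difference of 18.0 points (15.4 to 20.6).

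OTX2, a homeodomain protein, and SOX2, an HMG domain protein, were also found more often at the sites. OTX2 peaks lay on 23.0% (20.9 to 25.3) of the sites' ZIC2 peaks against 14.7% of the others and 14.8% of all ZIC2 peaks, a difference of 8.34 points (6.20 to 10.6). Of the POU3F1 peaks with ZIC2, 23.7% had OTX2, against 6.15% without ZIC2 and 6.38% of all POU3F1 peaks, a difference of 17.6 points (15.4 to 19.8). SOX2 peaks lay on 11.5% (9.95 to 13.3) of the sites' ZIC2 peaks against 2.64% of the others and 2.74% of all, a difference of 8.88 points (7.31 to 10.7). For the POU3F1 peaks these values were 15.7% with ZIC2, 9.74% without and 9.81% in all, a difference of 5.95 points (4.15 to 7.93).

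By combination, 649 sites (46.1%) had none of the 3 further factors over the ZIC2 peak, compared with 81.8% of the other ZIC2 peaks. POU5F1 alone was present at 348 sites (24.7%, against 1.95% of the other ZIC2 peaks) and SOX2 alone at 56 (3.98% against 1.46%). OTX2 alone was present at 158 sites, a share of 11.2% that was below the 13.2% of the other ZIC2 peaks. OTX2 and POU5F1 were together at 90 sites, OTX2 and SOX2 at 33, and SOX2 and POU5F1 at 30. All 5 factors met at 43 sites (3.06%), compared with 0.0764% of the other ZIC2 peaks that had OTX2, SOX2 and POU5F1.

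Further factors did not lie in the same place within a site. Among the 915 sites where neither midpoint of the longest pair was inside the other peak, 421 POU5F1 midpoints fell within the pair, and 21 of them (4.99%, 3.29 to 7.50) were nearer to the ZIC2 midpoint than to the POU3F1 midpoint. For SOX2 this was 39 of 120 (32.5%, 24.8 to 41.3), and for OTX2 105 of 200 (52.5%, 45.6 to 59.3). ZIC2 peaks made up 41.8% of the summed width of both peaks at these sites. POU5F1 was thus on the POU3F1 side. SOX2 leaned to that side, with an interval below both the 41.8% of width and an even division. The OTX2 interval included an even division and lay above 41.8%. That share of width is not the part of a pair nearer to the ZIC2 midpoint, which was not computed. No side is therefore read for OTX2.

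The shares of further factors changed gradually with the distance between the ZIC2 and POU3F1 peaks, inside and outside the limit that defined the sites. POU5F1 lay on 55.5% (48.6 to 62.2) of ZIC2 peaks with over 500 shared bp, on 25.3% (19.5 to 32.1) with 1 to 50 shared bp, on 19% (15 to 23.8) at gaps of 0 to 99 bp and on 3.77% (2.80 to 5.06) at gaps from 500 to under 1000 bp. At gaps of 5000 bp or more it lay on 2.33%. SOX2 lay on 25% (19.5 to 31.4) of ZIC2 peaks with over 500 shared bp, but on 5.62% (3.08 to 10.0) with 1 to 50 shared bp and 8.00% (5.43 to 11.6) at gaps of 0 to 99 bp. OTX2 lay on 36.0% (29.7 to 42.9) with over 500 shared bp and on 21.9% (16.5 to 28.5) with 1 to 50. For each of the 3 factors, the intervals just inside and just outside the limit overlapped. The octamer at the ZIC2 midpoint was found in 12% (8.20 to 17.2) of the 200 sites with over 500 shared bp and in 2.86% (1.79 to 4.53) of the 595 with over 200 and up to 500.

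**Figure D3:**
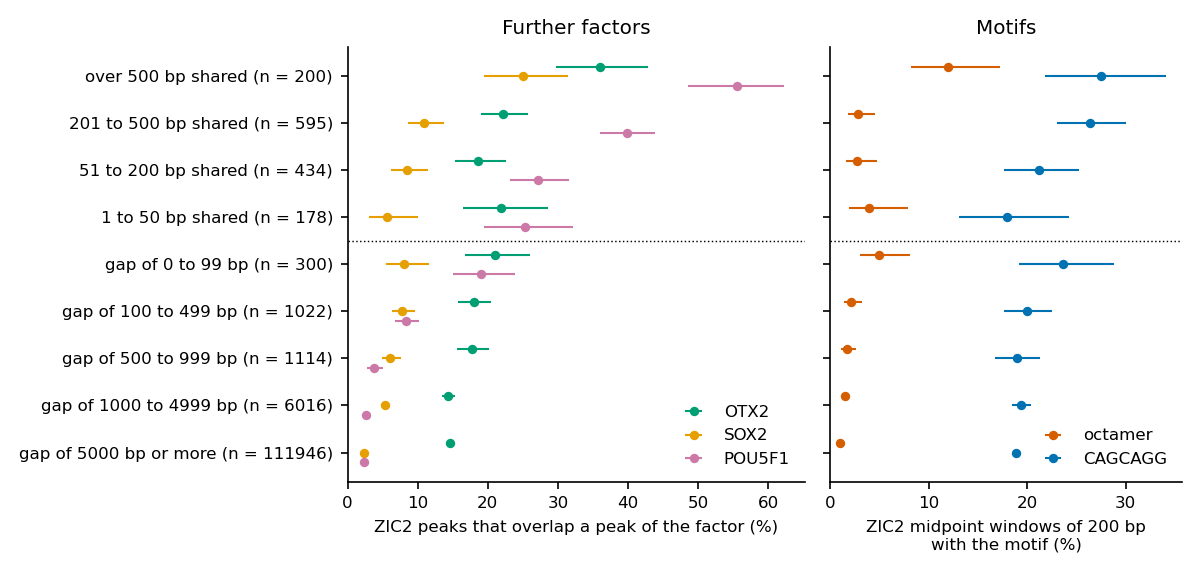
Percentage of EpiSC ZIC2 peaks that overlap a peak of OTX2, SOX2 or POU5F1 (left) or hold the octamer or CAGCAGG in 200 bp around their midpoint (right), by class of distance to the nearest POU3F1 peak; bars are 95% Wilson intervals, and the dotted line marks the limit of 1 shared bp. POU5F1 falls from 55.5% at the top to 2.33% at the bottom without a break at the limit, while CAGCAGG stays between 18.0% and 27.5%.

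The sites lay farther from genes than other ZIC2 peaks and nearer than other POU3F1 peaks. A TSS is the start of an annotated transcript. The median distance from the ZIC2 midpoint to the nearest TSS was 29.5 kb (quartiles 5.11 and 84.5) at the sites and 9.50 kb at the other ZIC2 peaks. For POU3F1 midpoints it was 29.5 kb with ZIC2 and 55.9 kb without. Within 5 kb of a TSS were 24.6% (22.4 to 26.9) of the sites' ZIC2 peaks and 37.0% of the others, a difference of -12.4 points (-14.6 to -10.1). It was -7.91 points (-9.91 to -5.75) with the TSSs of protein-coding transcripts alone, and it turned to 34.6 points (13.0 to 35.5) among peaks over 2000 bp, where 14 sites remained. Of the POU3F1 peaks, 24.5% with ZIC2 and 9.78% without were within 5 kb, a difference of 14.7 points (12.5 to 17.0). Within 50 kb the shares were 62.5% and 84.8% for ZIC2 peaks and 62.3% and 47.1% for POU3F1 peaks. By annotation, the ZIC2 midpoint was in an exon at 167 sites (11.9%), in an intron at 561 (39.9%) and between genes at 679 (48.3%). Of the other ZIC2 peaks, 15.1% had their midpoint in an exon and 38.8% between genes.

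Peaks of the ZIC2 and POU3F1 lists were also counted per 1 Mb segment and per chromosome. The rule drew on the same lists, so these counts describe the choice of sites and are not separate support. A site lay in a segment with a median of 21 ZIC2 peaks and 53 POU3F1 peaks. The other ZIC2 peaks lay in segments with medians of 103 and 6, respectively, and the other POU3F1 peaks in segments with 11 and 88. At least 1 site was in 959 segments, whereas 2451 segments held both a ZIC2 and a POU3F1 peak. Of the 959 segments, 640 held exactly 1 site and 4 held 5 or more. The share of ZIC2 peaks that were sites ranged from 0.510% on chromosome 11 to 2.61% on chromosome 3. Chromosome 3 carried 4568 ZIC2 peaks and 9076 POU3F1 peaks, whereas chromosome 11 carried 9612 and 3531.

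At the sites, ZIC2 scores were lower and POU3F1 scores higher than in the rest of each list. The ZIC2 peaks had a median score of 139.6 (quartiles 81.7 and 348) against 170.3 for the other ZIC2 peaks. The POU3F1 peaks had a median of 230.3 (quartiles 111 and 509) against 192.5. Sites were 1.4% of ZIC2 peaks under 1000 bp wide, 0.822% of those of 1000 to 2000 bp and 0.539% of those over 2000 bp. In the same classes, 1.21%, 1.3% and 1.44% of POU3F1 peaks were in a pair. Both scores reached 100 in 765 pairs (52.6%) and 500 in 53 pairs (3.65%). In 170 pairs (11.7%) the scores were over 10-fold apart.

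Among the sites, those where both peaks had a high score lay near promoters more often than those with low scores. ZIC2 peaks of like score without POU3F1 were not compared, so the trend is not shown to be particular to the sites. Ranked by the lower score of the pair, 71.7% (58.4 to 82.0) of the 53 sites at 500 or more were within 5 kb of a TSS, compared with 20.1% (17.2 to 23.3) of the 668 sites under 100. Peaks were also wider at the higher scores, with a median ZIC2 width of 1701 bp against 638.5 bp and a median POU3F1 width of 2201 bp against 867.5 bp. The part of width in this was not tested. POU5F1 was present at 50.9% (37.9 to 63.9) of the first and 31.0% (27.6 to 34.6) of the second.

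Of the 15 sites with the highest lower score, 12 had their ZIC2 midpoint within 5 kb of the TSS of a protein-coding gene. In 11 of them neither midpoint was inside the other peak. They fall into promoter sites with a broad POU3F1 peak beside the ZIC2 peak, 3 distant sites, and 2 sites over the factors' own genes, which come last.

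At promoters, the ZIC2 peak covered the start of the gene and the POU3F1 peak began at its edge. Near Pkn2, which encodes a protein kinase, a ZIC2 peak of score 1797 met a POU3F1 peak of score 1746 that was 9803 bp wide (chr3:142534243-142544045). They shared 352 bp in an intron of Pkn2 (chr3:142543694-142544045), with midpoints 5564 bp apart, and the ZIC2 midpoint was 0.086 kb from the TSS. Near Pbx3, which encodes a TALE homeodomain factor, the scores were 1305 and 3100, and the peaks shared 63 bp in an exon, with a POU3F1 peak of 7748 bp and a ZIC2 midpoint 0.099 kb from the TSS. Other promoter sites of this kind were nearest to Zfp91, Klf14, Rims2, Grm3, Rasa1, Arrdc3 and Epha7. Rims2, Grm3 and Epha7 encode a synaptic active zone protein, a metabotropic glutamate receptor and an ephrin receptor. Over the 9 promoter sites named here the shared stretch ranged from 50 bp (Arrdc3) to 352 bp (Pkn2), the midpoint distance from 2022 bp (Grm3) to 5564 bp (Pkn2) and the ZIC2 midpoint's distance to the TSS from 0.016 kb (Rasa1) to 1.07 kb (Epha7).

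Away from promoters, the site with the highest lower score was in an intron of Cd36, which encodes a fatty acid translocase, 49.4 kb from the TSS. Its ZIC2 peak had a score of 3100 and its POU3F1 peak, chr5:17289186-17293634, a score of 2217. They shared 1593 bp at chr5:17291517-17293109, the stretch whose CAGCAGG array is printed above. POU5F1 also scored 3100 there, while the OTX2 and SOX2 lists had no peak over the pair. Sites on repeats were not marked or left out, and the part of the tandem array in the Cd36 scores was not tested. The sites nearest to Ptbp2 (36.1 kb, scores 1436 and 1507) and Ifne (58.2 kb, scores 1082 and 1303) lay between genes.

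**Figure D4:**
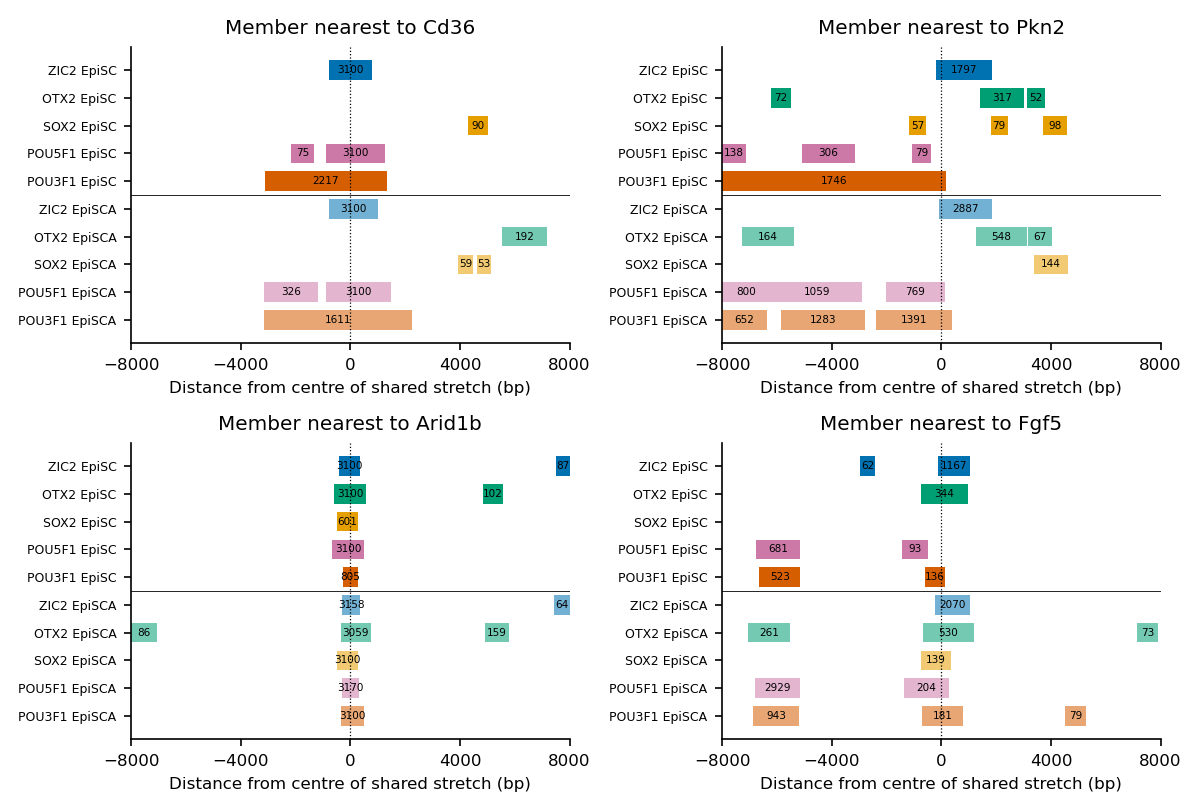
Peaks of the 5 factors in the EpiSC lists (full colour) and the activin-free lists (EpiSCA, pale) within 8 kb of the centre of the shared stretch at 4 sites, named by the nearest protein-coding gene; numbers are peak scores. At Pkn2 and Fgf5 the ZIC2 and POU3F1 peaks meet at their edges, at Cd36 the ZIC2 peak lies within a POU3F1 peak of 4449 bp, and at Arid1b peaks of all 5 factors are centred together.

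Of the 43 sites with all 5 factors, the one nearest to Arid1b, which encodes a subunit of the BAF chromatin remodelling complex, had midpoints 30 bp apart. It lay between genes, 369 kb from that TSS. Its POU3F1 peak (chr17:4626120-4626643) was wholly inside the ZIC2 peak, and the scores were 3100 for ZIC2, OTX2 and POU5F1, 601 for SOX2 and 805 for POU3F1. Without activin the scores of all 5 factors lay between 3059 (OTX2) and 3170 (POU5F1). Lists of problem regions were not used, so whether this site lies in such a region was not tested. The other 9 of the 10 named sites of this kind were nearest to Rims2, Rfx7, Shisa3, Cyb5r1, Pot1b, Cnot2, A830018L16Rik, Sntg1 and Fam161a, and their midpoints were 593 bp (Cnot2) to 4329 bp (Rfx7) apart. Among these 10, Arid1b alone had the 2 midpoints inside the opposite peaks. The pair recurred without activin at 38 of the 43 sites, and at 66.2% of all 1407.

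Genes of the epiblast and of early lineages were then examined as fixed lists, counting a gene where a site lay within 50 kb of one of its TSSs. This was so for 1042 of 22202 protein-coding genes (4.69%), of which 961 had a single site. In the list of epiblast and signalling genes it held for 6 of 23 (Fgf5, Otx2, Zic2, Zic5, Pou3f1 and Cdh2), of which Zic2, Otx2 and Pou3f1 had a site over their own exons and Zic5 is the neighbour of Zic2. In the list of pluripotency regulators it held for 1 of 17 (Lin28b), in that of neural plate and brain genes for 2 of 22 (Sox3 and Gbx2), and in that of primitive streak and endoderm genes for 3 of 13 (Gata6, Cer1 and Evx1). A ZIC2 peak lay within 50 kb of 16, 23, 22 and 13 genes of the pluripotency, epiblast, neural and streak lists. These were 94.1%, 100%, 100% and 100% of the genes, against 92.4% of all protein-coding genes. A POU3F1 peak lay within 50 kb of 6, 8, 13 and 9. These were 35.3%, 34.8%, 59.1% and 69.2%, against 44.2% of all protein-coding genes. The lists are small, and no set was tested.

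At the Gbx2 site, 8.85 kb from the TSS of this homeobox gene, the ZIC2 score was 1424, the POU3F1 score 335 and the shared length 269 bp. At the Sox3 site, 5.44 kb from the TSS of this SOX factor gene, the scores were 320 and 303 and the shared length 222 bp. The site in an intron of Lin28b, an RNA-binding regulator of let-7 microRNAs, shared only 20 bp, with scores of 65.7 for ZIC2 and 806 for POU3F1. Near Cdh2, the N-cadherin gene, scores of 1745 and 1032 were found 0.798 kb from the TSS. Sites near the endoderm gene Gata6 (scores 432 and 116) and the streak gene Evx1 (214 and 183) lay 6.54 and 8.57 kb away. Of the 2 sites within 50 kb of Cer1, a secreted inhibitor gene, the nearer was in an exon of Zdhhc21, with scores of 82.3 and 292.

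The genes of the factors need a separate reading, since each factor was expressed from a transfected vector. Of the 1407 sites, 4 had a ZIC2 peak over an exon of a factor's own gene. At Pou3f1 a ZIC2 peak and a POU3F1 peak, both of score 3100, shared 1777 bp in an exon (chr4:124334853-124336629), and the OTX2, SOX2 and POU5F1 lists had no peak over the pair. At Zic2 there were 2 such sites, with ZIC2 scores of 3100 and POU3F1 scores of 1118 and 379. At Otx2 the ZIC2 score was 83.6, the POU3F1 score 189 and the OTX2 score 3100. In 3 of these 4 pairs the POU3F1 peak lay wholly inside the ZIC2 peak, and in all 4 each midpoint was inside the other peak. The authors attributed a strong SOX2 peak on the Sox2 gene itself to carried-over vector. Whether vector DNA contributed to the peaks over exons of the factors' genes described here was not tested. Leaving out every ZIC2 and POU3F1 peak over an exon of these genes left the differences in the shares of further factors, of activin-free peaks, of peaks within 5 kb of a TSS, of the octamer and of CAGCAGG on the same side of 0, and the other comparisons were not run without them. No site lay within 50 kb of Sox2, where the nearest was 227 kb away, or of Pou5f1. The nearest site to Pax6 was 169.5 kb from its TSS, in an intron of Elp4.

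The pair recurred at most of the sites in the lists from activin-free cells. At 932 of 1407 sites (66.2%, 63.7 to 68.7) an activin-free ZIC2 peak on the ZIC2 peak overlapped an activin-free POU3F1 peak on the POU3F1 peak. Over all EpiSC ZIC2 peaks, 1.51% lay at the ZIC2 peak of an activin-free pair. At 101 further sites (7.18%) both peaks recurred but did not touch, with a median gap of 111 bp, and in 48 of these the gap was under 100 bp. The POU3F1 peak alone recurred at 234 sites (16.6%), whose ZIC2 peaks had a median score of 67.2. The ZIC2 peak alone recurred at 116 (8.24%), whose POU3F1 peaks had a median score of 83.5. Neither recurred at 24. The lost partner was therefore usually a peak of low score, against medians of 181 for ZIC2 and 267 for POU3F1 at sites whose pair recurred.

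Recurrence of each factor taken alone differed less between sites and other peaks. An activin-free ZIC2 peak was found on 81.7% (79.6 to 83.6) of the sites' ZIC2 peaks against 78.9% of the others, which is also the share over all ZIC2 peaks (78.9%). The difference was 2.76 points (0.637 to 4.71), and with all lists restricted to scores of at least 100 its interval included 0. Among POU3F1 peaks, 89.8% with ZIC2 and 82.5% without had an activin-free POU3F1 peak, against 82.6% of all, a difference of 7.28 points (5.59 to 8.75). Where at least 50% of both peaks had to be shared, this difference was -0.119 points (-7.17 to 5.24). An activin-free POU3F1 peak lay on 84.9% (83.0 to 86.7) of the sites' ZIC2 peaks, on 0.832% of the other ZIC2 peaks and on 1.8% of all.

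Recurrence rose with the shared length and with the score. It was 42.1% (35.1 to 49.5) at sites with 1 to 50 shared bp and 84.5% (78.8 to 88.9) at those with over 500. By the lower score of the pair it was 48.4% (44.6 to 52.1) under 100 and 90.6% (79.7 to 95.9) at 500 or more. By position, it was 62.6% where neither midpoint was inside the other peak, 73.7% where 1 was and 71.7% where both were. Just outside the limit, 38.8% (31.3 to 46.8) of the 147 EpiSC ZIC2 peaks at a gap of 0 to 49 bp lay at an activin-free pair, and the share fell to 8.02% at gaps from 200 to under 500 bp. Of the 15 sites with the highest lower score, 12 recurred. At those nearest to Grm3 and Arrdc3, both peaks recurred without overlap.

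**Figure D5:**
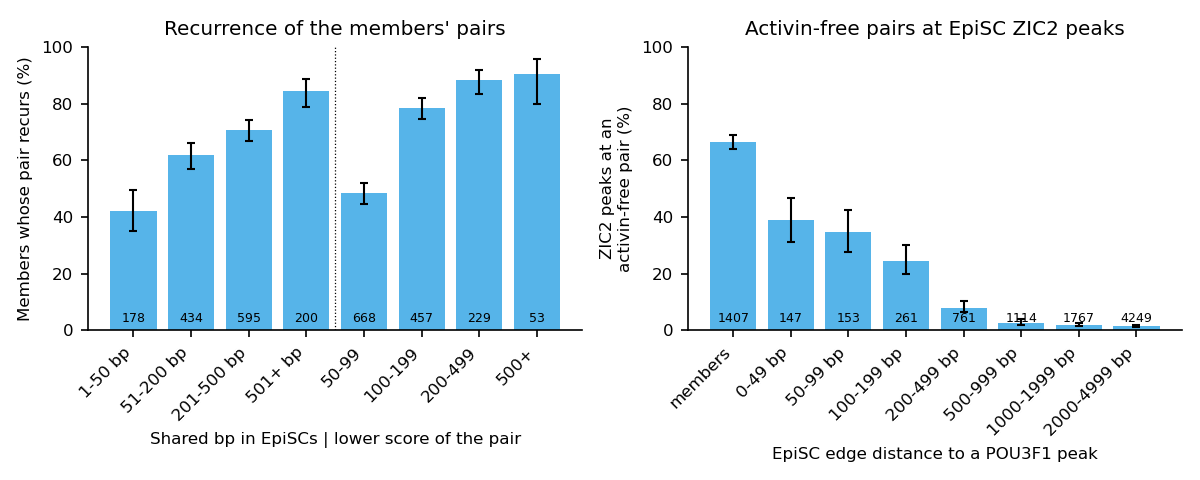
Left, percentage of ZIC2-POU3F1 sites whose pair recurs in the activin-free lists, by shared length in EpiSCs (first 4 bars) and by the lower score of the pair (last 4 bars). Right, percentage of EpiSC ZIC2 peaks that lie at the ZIC2 peak of an activin-free pair, for all 1407 sites and by the gap to the nearest EpiSC POU3F1 peak; error bars are 95% Wilson intervals and the number in each bar is its count of ZIC2 peaks. The share declines from 66.6% at the sites to 38.8% at gaps of 0 to 49 bp and 1.32% at gaps from 2000 to under 5000 bp.

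In 931 recurrent sites the POU3F1 peak of the longest EpiSC overlap was the one that recurred. The shared stretch had a median of 279 bp in EpiSCs and 347 bp in activin-free cells, and it was longer in the latter at 620 of the 931 (66.6%). At the Fgf5 site the ZIC2 score was 1167 in EpiSCs and 2070 without activin, and the POU3F1 score 136 and 181. The median width of the peaks differed between the whole lists, at 1034 bp for POU3F1 in EpiSCs and 1230 bp without activin, and its part in the longer overlap was not tested.

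The activin-free lists held more pairs than the EpiSC lists. There were 2065 activin-free ZIC2 peaks that overlapped an activin-free POU3F1 peak among 109062 (1.89%, 1.81 to 1.98), against 1.16% in EpiSCs. Of these, 939 (45.5%) overlapped a ZIC2-POU3F1 site of the EpiSC lists and 1804 (87.4%) any EpiSC ZIC2 peak, whereas 1072 (51.9%) overlapped an EpiSC POU3F1 peak. With 1 library per list, these values compare libraries, and a difference between cultures and one between libraries cannot be told apart.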

How the data were processed

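Peak lists of ZIC2, OTX2, SOX2, POU5F1 and POU3F1 from EpiSCs and activin-free EpiSCs were analysed, with 1 library per factor and culture. The authors aligned single-end reads with Bowtie2 to the mm9 build. They called peaks against input DNA by MACS1.4 with its band width changed from the default. The input was not used here. The deposited score of each peak is MACS's -10 log10 of its p-value, and no list was called again. Depth is unknown, and the intervals cover counting error only.

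Peaks off chromosomes 1 to 19 and X, 66 to 248 per list, were left out. Repeat annotation and lists of problem regions were not used here, so sites on tandem or other repeats were kept unmarked. The overlap and interval routines were checked on simulated lists. TSSs (86803 positions), genes and exons came from GENCODE vM1 on NCBIM37, whose chromosome lengths equal those of mm9. Motifs were searched in 200 bp around midpoints on both strands. A difference of shares was called when its 95% Newcombe interval excluded 0, and no p-value was computed.

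The sites and gene lists were chosen with earlier results of these data known. Named sites were the 15 with the highest lower score of the pair, the 10 highest of those with all 5 factors and the 10 highest of those that recurred, with genes of the factors, Fgf5, Pax6 and listed genes within 50 kb of a site. Alternatives were a score of at least 100, at least 100 shared bp, 50% reciprocal overlap, peaks under 1000 or over 2000 bp, a central window of 500 bp, protein-coding TSSs, peak edges and windows of 400 bp. Leaving out peaks over exons of the factors' genes was added after the data were seen. Scripts ran in Python 3.11.15 (matplotlib 3.10.9, pysam 0.24.0, scipy 1.17.1, numpy 2.4.6).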

Additional observations from a re-analysis of the deposited data

Results flagged for a closer look

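The further factors' excess at peaks in a ZIC2-POU3F1 pair was computed in the same way within the activin-free lists, and 5 of 6 contrasts differed between the cultures, with an interval of the difference that excluded 0. For ZIC2 peaks, the difference between those with and without POU3F1 was larger without activin by 10.6 points for OTX2 (7.59 to 13.6), by 11.6 points for SOX2 (9.07 to 14.1) and by 7.63 points for POU5F1 (4.31 to 10.9). SOX2 was on 25% of the activin-free ZIC2 peaks in a pair and on 4.50% of the others. For POU3F1 peaks, the SOX2 difference was larger by 8.63 points (5.88 to 11.3).

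POU5F1 at POU3F1 peaks moved the other way, by -18.0 points (-21.4 to -14.7). In EpiSCs it was on 45.7% of POU3F1 peaks with ZIC2 and 27.7% of those without, whereas in activin-free cells it was on 54.6% of both. The POU5F1 list held 62387 peaks in EpiSCs and 126751 in activin-free cells. The SOX2 list held 63672 and 87781, and the OTX2 list 103109 and 113831. The ZIC2 list fell from 121805 to 109062 and the POU3F1 list from 112687 to 101920. The part of list size in any of these differences of shares was not tested. The OTX2 difference at POU3F1 peaks changed by 1.62 points (-1.39 to 4.58), and its interval included 0. Each list is 1 library, so culture and library cannot be told apart.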

How the results depend on the processing

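Of 94 alternatives set for 16 results, 76 kept the direction and the call or, for a count or the recurrence, stayed near the reported value. The number of sites, 1407, was 745 with scores of at least 100, 143 with 50% of both peaks shared, 451 among peaks under 1000 bp and 14 among peaks over 2000 bp. Recurrence, 66.2%, was 37.1% with 50% of both peaks shared in both cultures, 27.7% among peaks under 1000 bp and 50% among peaks over 2000 bp. By construction, these alternatives also drop activin-free pairs that miss the limit. For POU3F1 peaks with against without ZIC2, the activin-free POU3F1 difference turned to -0.119 points with 50% of both shared. The activin-free ZIC2 difference was 2.42 points with scores of at least 100, with an interval that included 0. The CAGCAGG difference was 1.99 points for ZIC2 peaks in windows of 400 bp and 0.444 points for POU3F1 peaks with scores of at least 100, also with intervals that included 0, and the cause was not tested.

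Among peaks over 2000 bp, 14 sites remained. There the TSS difference for ZIC2 peaks turned to 34.6 points, the activin-free ZIC2 difference to -0.475, the octamer difference for ZIC2 peaks to -0.654 and the CAGCAGG difference for POU3F1 peaks to -1.80. The intervals of the activin-free POU3F1 difference (14.8), the octamer difference for POU3F1 peaks (0.981) and the CAGCAGG difference for ZIC2 peaks (0.930) included 0 there. These 14 peaks limit the precision. The further factors' differences kept their direction and call in all alternatives run. Leaving out peaks over the factors' own exons moved none of the 16 results across its limit. No paired analysis was possible because each group has 1 sample. A score is not an amount of binding. Each factor was mapped in its own population of transfected cells. Shared binding on one molecule, adjacent binding and binding in different cells therefore cannot be told apart.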

Other observations

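Some sites lay together. The segments with most sites were 17 to 18 Mb of chromosome 5 and 143 to 144 Mb of chromosome 7, with 6 each. The first held 20 ZIC2 and 138 POU3F1 peaks, and the second held 51 and 29. The sites were nearest to 1107 protein-coding genes, 887 of them with a single site, and 54 genes were nearest to 3 or more. Cdh2, which encodes N-cadherin, Lrp1b, which encodes an LDL receptor family member, and Ptprd, which encodes a receptor tyrosine phosphatase, were nearest to 5 each. So were Csmd1, Gm7536, Kcnt2 and Rpl17-ps3.

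GGATTA, which OTX proteins bind, was in 5.05% of ZIC2 midpoint windows of the sites against 3.95% at the other ZIC2 peaks, a difference of 1.10 points (0.0627 to 2.37). In POU3F1 midpoint windows the difference, with ZIC2 against without, was -1.63 points (-2.85 to -0.195).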
